A study of Mus musculus with 9 samples.

Results

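The genes described are 32 chaperones and stress genes of the heat shock and unfolded protein responses, listed by gene symbol with earlier results of these data known, out of 16593 genes that have a probe on the array. They fall into 8 cytosolic heat shock genes, 3 mitochondrial chaperones, 14 genes of the endoplasmic reticulum (ER) and 7 genes of the Atf4-type stress response. Probes of the array carried 29 of the 32 symbols, 40 probes in all. Hspa1b, Hsp90ab1 and Sdf2l1 had no probe of that name and were not analysed here. The probe of Canx, the ER lectin chaperone calnexin, was detected on 0 of 9 arrays, so 28 genes were tested: 6 cytosolic, 3 mitochondrial, 12 of the ER and 7 of the Atf4 type.

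Chaperones bind unfolded protein chains and help them reach their folded form, and each compartment of the cell has its own set. In the cytosol their genes are switched on by heat shock factors. In the ER, an excess of unfolded protein activates the sensors Ire1, Perk and Atf6; Ire1 splices the mRNA of Xbp1, and Xbp1 and Atf6 raise ER chaperones. Perk and related kinases phosphorylate the initiation factor eIF2 alpha, which slows translation but favours that of Atf4, an activator of genes of amino acid supply and of the proapoptotic factor Ddit3 (CHOP). Endoderm gives rise to secretory epithelia, whose cells carry much protein through the ER.

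Total RNA of 3 kinds of sorted mouse cells was measured on 9 bead arrays, 3 a group. ES cells carried no reporter and came from the 129P2/OlaHsd strain. Definitive endoderm made in culture (DE) came from R1 ES cells, labelled as a cross of 129X1/SvJ with 129S1/SV-+p+Tyr- cKitlSl-J/+. Anterior foregut endoderm made in culture (AFE) came from the 129X1/SvJ strain. The labels name the lines AV3, p2lac40, Sox17GFP and Pax9Venus, all kept on mouse embryonic fibroblasts with LIF, without saying which line gave which sample. The fibroblasts were depleted before differentiation. From day 2 of differentiation the medium held GSKiXV at 5 nM and IDE-1 at 5 µM. On day 6 the protocol replates cells with 10 µM Y-27632 and then gives 500 nM A83-01, which blocks TGF-beta family receptors, and 100 nM LDN193189, which blocks BMP receptors. The sort gate and the day of collection are not given in the sources used here. GSKiXV and IDE-1 are recorded for the DE and AFE samples only. The replating, Y-27632, A83-01 and LDN193189 are recorded for the AFE samples only. Strain, line, treatment and cell type therefore cannot be told apart in any comparison below. Nothing in the labels says that the 3 arrays of a group were separate cultures, and the p-values rest on the spread among these arrays, part or all of which may be technical.

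Between 12628 and 14352 probes were detected per array. All 6 ES cell markers looked at were detected on all 3 ES arrays, and the mean log2 level of their list was 13.08 to 13.22 there, 6.59 to 6.81 on DE and 5.68, 7.77 and 5.85 on AFE 1, 2 and 3. The endoderm list (Sox17, Foxa2, Cxcr4 and others) stood at 9.56 to 11.43 on DE against 5.56 to 5.66 on ES and 7.41 to 7.89 on AFE. A list of extraembryonic endoderm markers (Ttr, Afp, Sox7 and others) also peaked in DE, at 10.83, 10.75 and 11.79 on DE 1, 2 and 3 against 6.17 to 6.41 on ES and 7.72 to 7.98 on AFE. The foregut list stood at 7.83 to 8.24 on AFE against 5.73 to 5.76 on ES and 5.89 to 6.18 on DE. Of its genes, Pax1 was detected on all 3 AFE arrays, Pax9 on 2 and Nkx2-1 on 1. Isl1, detected in all 3 groups, was highest on AFE (11.22 to 11.48). Sox2 was higher on ES (10.11 to 10.30) than on AFE (8.29 to 9.62), and Foxa2 was higher on DE (9.06 to 9.91) than on AFE (6.89 to 8.03). DE 3 stood apart from its group: it correlated with DE 1 and DE 2 at r = 0.934 and 0.931 across genes, while those correlated with each other at 0.995. Its endothelial marker list was at 10.28 against 5.40 and 5.25, and its level of Cer1, an endoderm marker, was 6.86 against 11.75 and 11.52. Fibroblast markers averaged 7.67, 7.76 and 8.96 on the ES arrays, 5.47, 5.54 and 6.32 on DE and 7.29, 7.10 and 5.79 on AFE. ES 3 alone was on a second slide. Results that turn on one of these arrays are given with and without it.

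Levels are log2 of background-corrected, quantile-normalized intensity. Changes are differences of mean log2 levels ± SE from a linear model of limma fitted to all genes, with n = 3 arrays a group. A gene is said to rise, to fall or to be called where its adjusted p is under 0.05, while "changed by" gives the difference whether or not it passed. Each gene is read by its brightest detected probe, and levels of different genes are not compared.

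Set against ES cells, DE showed opposite movements by compartment. Of the 12 ER genes 9 were higher in DE, 0 lower and 3 did not pass the test, with a median change of 0.81. Cytosolic heat shock genes counted 0 higher, 4 lower and 2 not passed (median -0.97), mitochondrial chaperones 0 higher, 2 lower and 1 not passed (median -0.79), and Atf4-type genes 0 higher, 4 lower and 3 not passed (median -1.22). Together this made 9 genes higher and 10 lower, while of all 10251 genes tested 22.2% were higher and 21.7% lower (43.9% in either direction), with a median of 0.01. Within the slide that holds the other 8 arrays, without ES 3, 6 were higher and 8 lower. Without ES 2 or DE 2, 4 and 5 were higher, and without ES 1 or ES 2, 6 were lower. The authors' processed values, in which the columns of ES 2 and ES 3 did not match their samples' intensities, gave 1 higher and 4 lower. The extraembryonic endoderm list, like the ER genes, was low on ES and high on DE, and the fibroblast list the reverse; their part in these counts was not tested. RNA was pooled from many cells, so fewer cells of a type and less RNA per cell cannot be told apart.

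**Figure D1:**
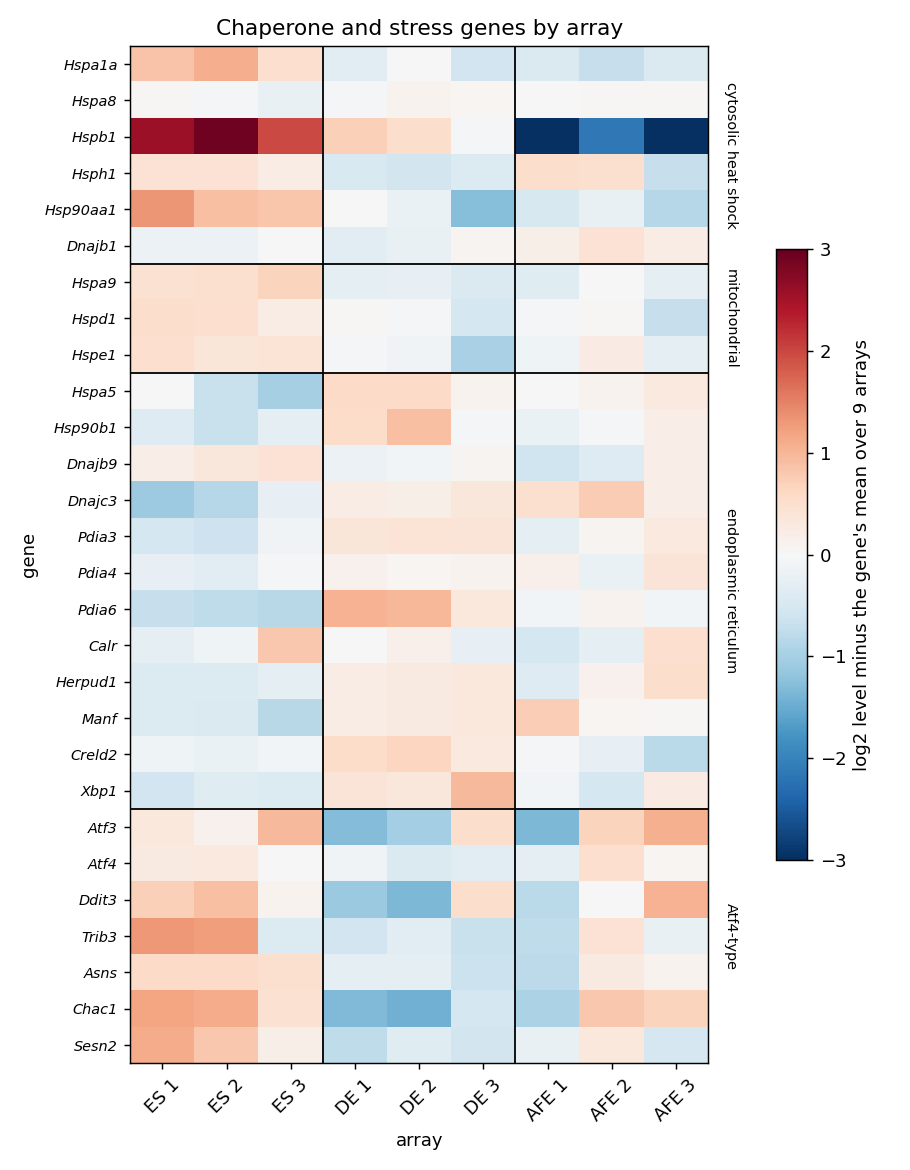
Level of each of the 28 tested genes on each of the 9 arrays, as the log2 level minus the gene's mean over the arrays (red above, blue below its mean), grouped by class. ER genes are mostly blue on ES and red on DE, Atf4-type genes the reverse, and Hspb1 runs from deep red on ES to deep blue on AFE.

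The small heat shock protein Hspb1, which holds unfolded proteins in solution and binds actin, had the largest changes of the 28 genes in the 3 comparisons. Its level was 12.36, 12.72 and 11.78 on the ES arrays, 10.51, 10.33 and 9.78 on DE and 6.45, 7.66 and 6.67 on AFE. The 3 groups did not overlap, and each step went down. Hspb1 changed by -2.08 ± 0.36 from ES to DE (adjusted p = 0.00155), by -3.28 ± 0.36 from DE to AFE (adjusted p = 3.73e-04) and by -5.36 ± 0.36 from ES to AFE, which is 41.1-fold lower (adjusted p = 6.82e-06). It was called in all 3 comparisons under every alternative processing tried.

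Hsp90aa1, the stress-inducible cytosolic HSP90, stood at 11.57, 11.15 and 11.08 on ES, at 10.27, 10.05 and 8.99 on DE and at 9.77, 10.04 and 9.40 on AFE. All ES arrays were above all others, while DE and AFE overlapped. It changed by -1.50 ± 0.33 from ES to DE (adjusted p = 0.00536) and by -1.53 ± 0.33 from ES to AFE (adjusted p = 0.00511), and by -0.03 ± 0.33 from DE to AFE, which did not pass. Hspa1a, the inducible cytosolic HSP70, lay near background: its probe was detected on 3 ES arrays, 1 DE array and 0 AFE arrays. Its levels of 5.96, 6.19 and 5.59 on ES exceeded the 4.76, 5.11 and 4.53 on DE (change -1.11 ± 0.22, adjusted p = 0.00302). In AFE, where it was not well above background, it was at least 1.51-fold lower than in ES (adjusted p = 0.00114). Hspa1a has a nearly identical copy, Hspa1b, and whether the probe reads one or both was not tested.

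Hsph1, a nucleotide exchange factor of the HSP70 family, was at 11.90, 11.88 and 11.68 on ES and 11.01, 10.89 and 11.05 on DE, without overlap. It fell by 0.84 ± 0.30 (adjusted p = 0.0460), a call that ended when any 1 of the 6 ES or DE arrays was left out (adjusted p 0.0554 to 0.116). On AFE it was at 11.97, 11.93 and 10.76, so that AFE 1 and 2 lay above every ES array and AFE 3 below every DE array. Without AFE 3 the change from DE to AFE passed (adjusted p = 0.00519). Dnajb1, the HSP40 partner of HSP70, stood at 11.61, 11.61 and 11.79 on ES, 11.46, 11.58 and 11.87 on DE and 11.98, 12.22 and 12.01 on AFE. It passed in none of the comparisons (changes -0.03, 0.43 and 0.40), although every AFE array lay above every other one, and without DE 3 the change from DE to AFE passed (adjusted p = 0.0378).

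Hspa8, the constitutive cytosolic HSP70, gave different answers by probe. The brightest probe ranked between 6 and 28 of 25697 probes on every array, at 76.3% to 93.3% of the brightest probe's intensity, and its level stayed between 15.26 and 15.58. Whether it was saturated was not tested, so its change from ES to DE of 0.12 ± 0.15 (adjusted p = 0.569) does not show that Hspa8 stayed level. The second probe read 14.24, 14.36 and 14.74 on ES, 12.57, 12.33 and 12.96 on DE and 13.03, 13.05 and 12.94 on AFE. By that probe Hspa8 fell by 1.83 ± 0.21 from ES to DE (adjusted p = 1.37e-04) and by 1.44 ± 0.21 from ES to AFE (adjusted p = 5.86e-04). The counts above use the brightest probe and so leave Hspa8 among the genes that did not pass.

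The 3 mitochondrial chaperones had their highest mean level in ES. Hspa9, the mitochondrial HSP70 (mortalin), was at 14.30, 14.32 and 14.50 on ES, 13.56, 13.59 and 13.39 on DE and 13.46, 13.82 and 13.55 on AFE. ES arrays lay above all others. Hspa9 changed by -0.86 ± 0.17 from ES to DE (adjusted p = 0.00289) and by -0.76 ± 0.17 from ES to AFE (adjusted p = 0.00568), and its second probe by -1.51 and -1.38. Hspd1 and Hspe1 encode the chaperonin HSP60 and its lid HSP10 and are transcribed head to head from a shared promoter. Hspe1 was at 12.85, 12.69 and 12.75 on ES and at 12.32, 12.24 and 11.36 on DE, without overlap. It fell by 0.79 ± 0.27 (adjusted p = 0.0365), and the call ended without ES 1, ES 2, ES 3, DE 3 or AFE 1 (adjusted p 0.0513 to 0.101). Hspd1 changed by -0.59 ± 0.24 (adjusted p = 0.0778) by its brightest probe, passing without AFE 3 (adjusted p = 0.0361), and by -2.19 ± 0.31 (adjusted p = 4.21e-04) by its second probe.

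**Figure D2:**
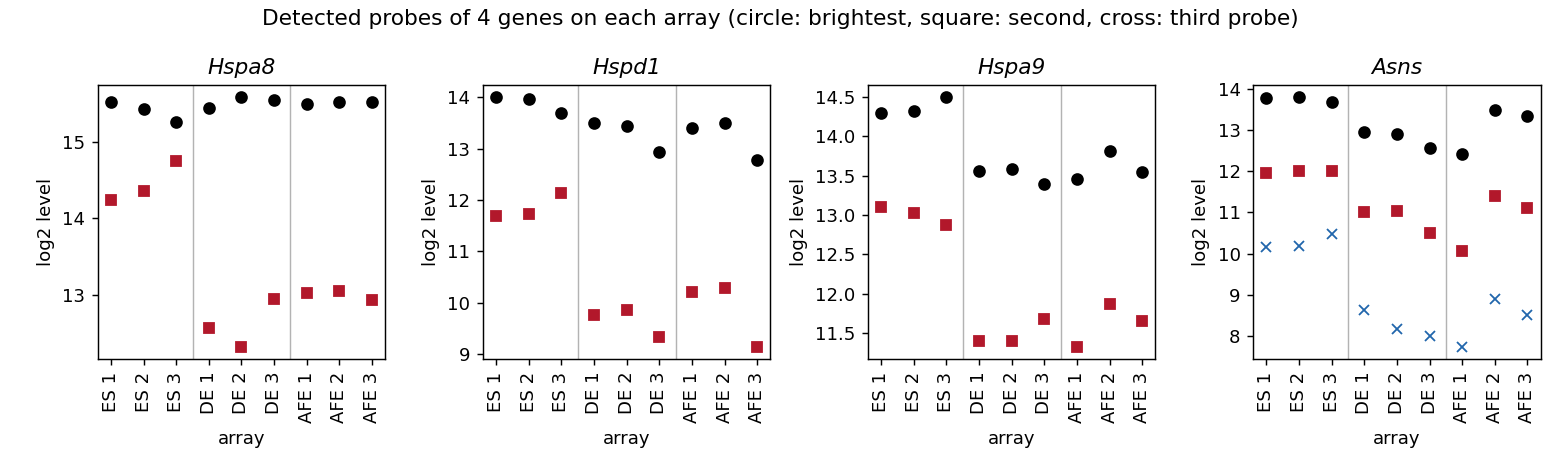
Log2 level (y axis) of every detected probe of Hspa8, Hspd1, Hspa9 and Asns on each of the 9 arrays (x axis; grey lines part the groups). The second probe of Hspa8 falls from 14.24 or more on ES to 13.05 or less on the other arrays, while its brightest probe stays between 15.26 and 15.58.

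Of the 8 genes with several detected probes, 5 were not called alike by all their probes in some comparison: Asns, Herpud1, Hspa8, Hspd1 and Sesn2. Creld2, Ddit3 and Hspa9 were called alike.

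Heat shock factors bind repeats of the unit GAA in alternating direction. Promoter windows of RefSeq (build GRCm38.p6), from 250 bases before to 50 after the start of transcription, were searched on both strands for GAANNTTC followed by 2 free bases and GAA, as 1 motif. Windows were found for 27 of the 32 genes, 30 windows in all. The motif lay in Hsph1, Hspd1 and Hspe1, and in 0.603% of all 32851 windows of the build. The shorter GAANNTTC, which the longer motif contains, was in 4 of 5 cytosolic genes with a window (Hspa1a, Hspa1b, Hspb1 and Hsph1) and in 7.86% of all windows. A match says nothing about binding in these cells. The windows of Hsph1 (chr5:149636287-149636586, minus strand) and Hspe1 (chr1:55087898-55088197, plus strand, overlapping that of Hspd1) are shown because both genes fell from ES to DE, with the long motif in capitals; it starts at position 37 in Hsph1 and at -89 in Hspe1, counted from the start of transcription, and occurs 2 times, overlapping, in Hspe1.
Hsph1: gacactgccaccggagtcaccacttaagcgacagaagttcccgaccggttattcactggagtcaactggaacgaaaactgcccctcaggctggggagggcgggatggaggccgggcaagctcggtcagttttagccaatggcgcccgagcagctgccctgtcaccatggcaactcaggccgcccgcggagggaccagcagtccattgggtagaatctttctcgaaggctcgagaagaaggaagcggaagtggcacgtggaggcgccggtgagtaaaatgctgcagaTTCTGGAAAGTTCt
Hspe1: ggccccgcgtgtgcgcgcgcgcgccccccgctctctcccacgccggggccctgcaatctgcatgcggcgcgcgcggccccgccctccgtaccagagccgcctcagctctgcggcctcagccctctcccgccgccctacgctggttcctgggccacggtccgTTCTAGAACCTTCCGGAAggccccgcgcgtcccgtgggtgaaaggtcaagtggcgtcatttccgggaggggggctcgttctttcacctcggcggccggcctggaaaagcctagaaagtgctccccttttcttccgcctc

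The ER genes went the other way. Pdia6, a protein disulfide isomerase that also damps Ire1 and Perk signalling, was at 8.28, 8.21 and 8.14 on ES, 10.00, 9.95 and 9.27 on DE and 8.89, 9.07 and 8.88 on AFE. The groups did not overlap: DE was highest, ES lowest and AFE between them. Pdia6 rose by 1.53 ± 0.21 from ES to DE, 2.90-fold (adjusted p = 4.34e-04), and was called there under every alternative tried. From DE to AFE it changed by -0.79 ± 0.21 (adjusted p = 0.0255), a call that ended without DE 1, DE 2 or any 1 AFE array (adjusted p 0.0527 to 0.0991). AFE was still above ES by 0.74 ± 0.21 (adjusted p = 0.0198), which did not pass without ES 2, ES 3 or AFE 2 (adjusted p 0.0530 to 0.0635).

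Xbp1, the transcription factor made active by Ire1, had levels of 11.37, 11.58 and 11.52 on ES and 12.33, 12.28 and 12.91 on DE. It rose 2.02-fold, by 1.02 ± 0.25 (adjusted p = 0.00839). On AFE it was at 11.86, 11.41 and 12.19, below every DE array, but the change of -0.69 ± 0.25 did not pass (adjusted p = 0.0733). It passed without AFE 3 (adjusted p = 0.0367), with median scaling (0.0200) and with intensity trend and robust moderation (0.0492). The array reads the total mRNA and does not part spliced from unspliced Xbp1.

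The major ER chaperones of the HSP70 and HSP90 families rose together from ES to DE. Hspa5 (BiP), which holds the 3 sensors inactive, was at 9.45, 8.77 and 8.44 on ES, 10.02, 10.00 and 9.55 on DE and 9.42, 9.54 and 9.73 on AFE. It rose by 0.97 ± 0.27 (adjusted p = 0.0150), a call lost without ES 2, ES 3, DE 1 or DE 2 (adjusted p 0.0511 to 0.0555). Hsp90b1 (GRP94), the ER HSP90, was at 12.94, 12.66 and 13.02 on ES and 13.87, 14.23 and 13.29 on DE, where DE 3 was the lowest of its group. It rose by 0.92 ± 0.25 (adjusted p = 0.0148), lost without ES 2 or DE 2 (adjusted p 0.0575 and 0.0617).

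Among the co-chaperones and foldases, Dnajc3 (p58IPK), a J protein of the ER that also inhibits Perk, was at 7.29, 7.50 and 8.12 on ES, 8.60, 8.55 and 8.70 on DE and 8.85, 9.14 and 8.58 on AFE. It rose from ES to DE by 0.98 ± 0.24 (adjusted p = 0.00922) and from ES to AFE by 1.22 ± 0.24 (adjusted p = 0.00328), with every ES array below all others. Pdia3, a disulfide isomerase that works with calnexin and calreticulin, rose by 0.80 ± 0.20 from ES to DE (adjusted p = 0.0109; 0.0508 without ES 2). Pdia4 changed by 0.31 ± 0.19 and Calr, the lectin chaperone calreticulin, by -0.14 ± 0.34, and neither passed. Calr stood at 10.98 on ES 3 against 9.87 and 10.04 on ES 1 and 2.

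The remaining ER genes serve degradation, secretion or HSP70 function. Manf, a secreted ER stress factor, was at 5.92, 5.88 and 5.50 on ES, 6.55, 6.60 and 6.64 on DE and 7.07, 6.39 and 6.37 on AFE, so that ES was below both others without overlap. It rose by 0.83 ± 0.22 to DE (adjusted p = 0.0143) and by 0.84 ± 0.22 from ES to AFE (adjusted p = 0.0139). Creld2, another secreted ER stress protein, was at 10.61, 10.52 and 10.65 on ES, 11.27, 11.38 and 11.02 on DE and 10.70, 10.49 and 9.92 on AFE. DE was above both. Creld2 rose by 0.63 ± 0.22 from ES to DE (adjusted p = 0.0424; 0.0572 to 0.130 without any 1 ES array, DE 1, DE 2 or AFE 2) and changed by -0.85 ± 0.22 from DE to AFE (adjusted p = 0.0215; 0.0700 and 0.0815 without DE 1 or DE 2).

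Herpud1, a membrane protein of ER-associated degradation, rose by 0.64 ± 0.22 from ES to DE (adjusted p = 0.0417), a call lost without any 1 ES or DE array or AFE 2 (adjusted p 0.0588 to 0.110). Its second probe rose as well, by 0.50 ± 0.18 (adjusted p = 0.0464), and fell by 0.58 ± 0.18 from DE to AFE (adjusted p = 0.0466). There the brightest probe changed by -0.18 ± 0.22 and did not pass (adjusted p = 0.594). Dnajb9 (ERdj4), a J protein that targets misfolded proteins for degradation, was at 9.86, 10.01 and 10.10 on ES, 9.50, 9.59 and 9.74 on DE and 9.07, 9.29 and 9.86 on AFE. Every DE array was below every ES array, against the direction of the 9 called ER genes, but the change of -0.38 ± 0.22 did not pass (adjusted p = 0.184).

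**Figure D3:**
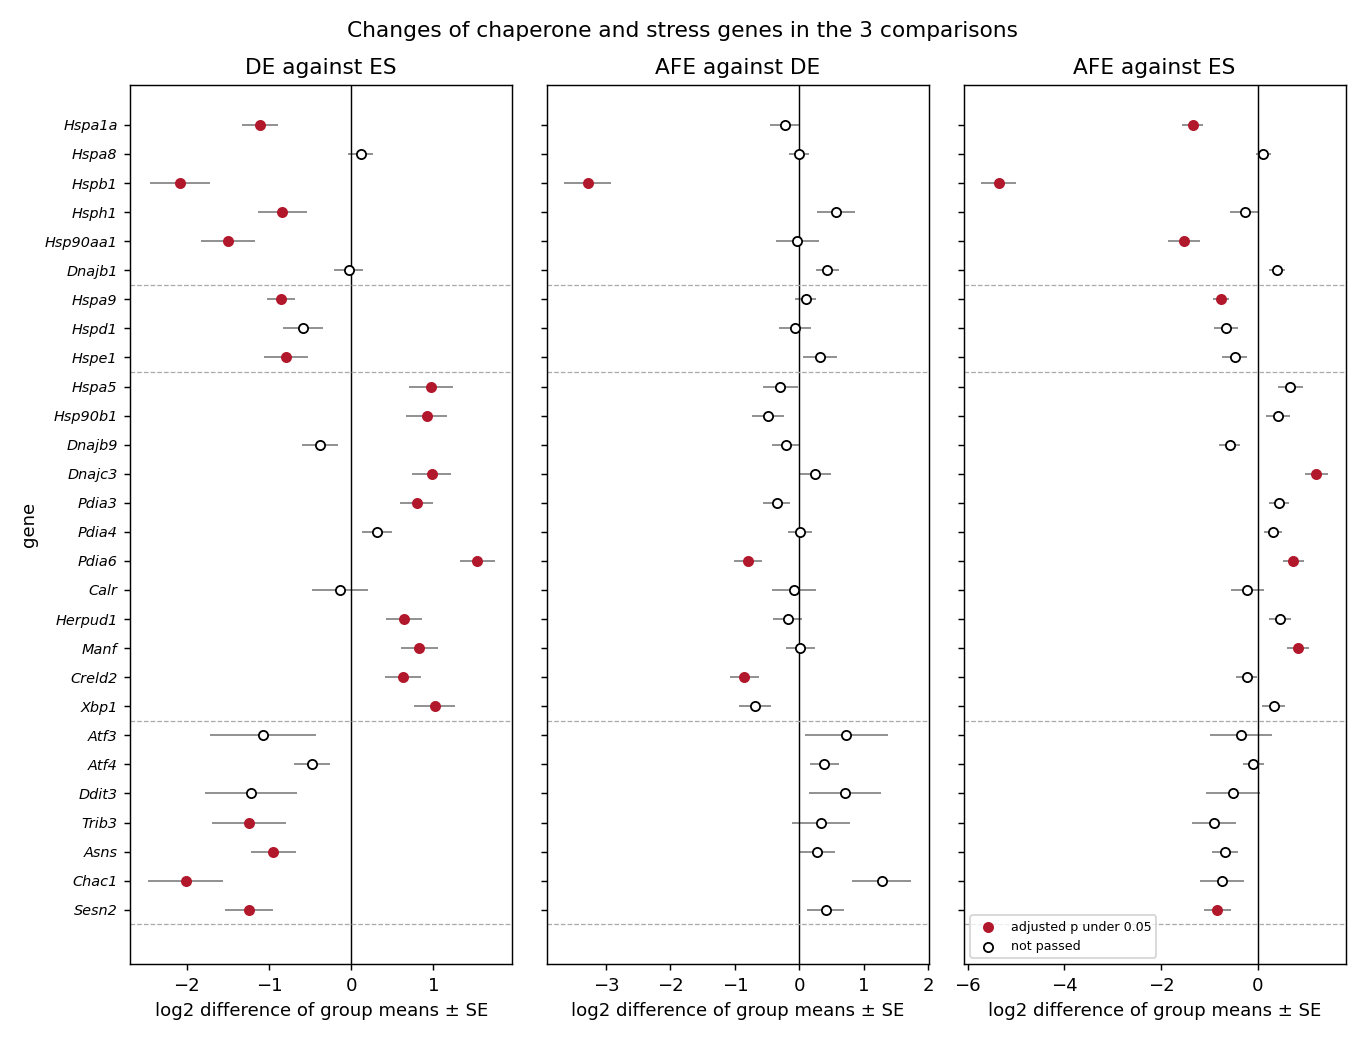
Change of each of the 28 genes in the 3 comparisons, as the log2 difference of group means ± SE (x axis; dashed lines part the classes; filled points have an adjusted p under 0.05). In DE against ES the 9 called ER genes lie right of 0 and the 10 called genes of the other classes left of it; in AFE against DE only Hspb1, Pdia6 and Creld2 are filled.

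The ER stress response element was searched in the promoter windows as CCAAT, 9 free bases and CCACG, on both strands. It lay in 7 of the 13 ER genes with a window, Calr, Canx, Creld2, Dnajc3, Hsp90b1, Hspa5 and Pdia6, in 0 of the other 14 genes with a window, and in 0.119% of all windows. Its second form, ATTGG, 1 free base and CCACG, lay in Herpud1 and in 0.0365% of all windows. The 5 letters CCACG alone, part of both, were in 19 of the 27 genes and in 32.8% of all windows. Of the 7 genes with the first form, 5 rose from ES to DE, Calr did not pass and Canx was not detected. Among the ER genes with a window but without that form, Herpud1, Pdia3 and Xbp1 also rose. Dnajb9 and Pdia4 did not pass, and Sdf2l1 had no probe. Of all genes tested 22.2% were higher in DE than in ES. TGACGTG, bound by Xbp1 and Atf6, was in Hspa5 and in 2.01% of all windows. The windows of Pdia6 (chr12:17266339-17266638, plus strand) and Dnajc3 (chr14:118937682-118937981, plus strand) are shown because these had the largest called changes among ER genes with the element. The element is in capitals and starts at position -98 in Pdia6 and at -105 in Dnajc3.
Pdia6: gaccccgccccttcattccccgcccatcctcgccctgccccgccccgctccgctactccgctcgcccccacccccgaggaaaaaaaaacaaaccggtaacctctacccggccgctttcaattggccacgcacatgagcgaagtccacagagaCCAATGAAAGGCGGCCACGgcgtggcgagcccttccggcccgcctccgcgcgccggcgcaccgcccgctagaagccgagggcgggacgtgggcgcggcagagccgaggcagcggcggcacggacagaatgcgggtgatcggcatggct
Dnajc3: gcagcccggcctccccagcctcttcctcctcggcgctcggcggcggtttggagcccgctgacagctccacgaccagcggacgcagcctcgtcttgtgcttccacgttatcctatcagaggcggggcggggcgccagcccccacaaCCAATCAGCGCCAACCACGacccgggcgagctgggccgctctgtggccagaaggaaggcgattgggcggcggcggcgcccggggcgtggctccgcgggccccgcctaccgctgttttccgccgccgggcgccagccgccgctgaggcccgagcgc

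All 7 Atf4-type genes had their highest mean level in ES and their lowest in DE, an order that 19.8% of all genes tested shared. Chac1, which degrades glutathione and is a target of Atf4 and Ddit3, was at 11.67, 11.60 and 10.92 on ES, 9.15, 9.04 and 9.96 on DE and 9.53, 11.29 and 11.14 on AFE. It fell 4.04-fold from ES to DE, by 2.02 ± 0.46 (adjusted p = 0.00636). On AFE 2 and 3 it was back near the ES levels, while AFE 1 lay among the DE arrays. The change from DE to AFE was 1.28 ± 0.46 (adjusted p = 0.0749) and passed without AFE 1 (adjusted p = 0.00985) or DE 3 (adjusted p = 0.0330).

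Sesn2, an inhibitor of mTORC1 that senses leucine, was at 9.10, 8.79 and 8.16 on ES, 7.23, 7.64 and 7.44 on DE and 7.76, 8.30 and 7.49 on AFE. It fell by 1.24 ± 0.29 to DE (adjusted p = 0.00659) and by 0.83 ± 0.29 from ES to AFE (adjusted p = 0.0409). The latter was lost without ES 1, ES 2, DE 1, DE 2, AFE 1 or AFE 3 (adjusted p 0.0522 to 0.150). Its second probe also fell to DE, by 1.08 ± 0.30 (adjusted p = 0.0163). From ES to AFE that probe changed by -0.71 ± 0.30 and did not pass (adjusted p = 0.0883). Asns, the asparagine synthetase, was at 13.79, 13.79 and 13.69 on ES, 12.95, 12.92 and 12.57 on DE and 12.43, 13.50 and 13.34 on AFE. It fell by 0.95 ± 0.27 to DE (adjusted p = 0.0187; 0.0554 and 0.0579 without ES 1 or ES 2), and its other 2 probes fell by 1.99 and 1.14. Both other probes were also lower in AFE than in ES (by 1.88 and 1.13, adjusted p = 8.31e-04 and 0.0172), where the brightest probe changed by -0.67 ± 0.27 and did not pass (adjusted p = 0.0727).

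Trib3, a pseudokinase induced by Ddit3 and Atf4, was at 7.76, 7.73 and 6.07 on ES and 5.91, 6.13 and 5.81 on DE, with ES 3 inside the DE range. It fell by 1.24 ± 0.45 (adjusted p = 0.0497), a call lost without ES 1, ES 2, any 1 DE array, AFE 1 or AFE 3 (adjusted p 0.0503 to 0.167). Without ES 3 it also passed as lower in AFE than in ES (adjusted p = 0.00885). Atf4 itself was at 9.21, 9.24 and 8.94 on ES, 8.83, 8.51 and 8.63 on DE and 8.68, 9.44 and 9.01 on AFE, and its change of -0.47 ± 0.22 to DE did not pass (adjusted p = 0.109). Atf4 is regulated largely through its translation, which an array does not read.

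Atf3 and Ddit3, transcription factors downstream of Atf4, varied widely within groups. Atf3 was at 7.44, 7.26 and 8.11 on ES, 5.83, 6.10 and 7.64 on DE and 5.78, 7.79 and 8.19 on AFE. Ddit3 was at 8.67, 8.85 and 8.06 on ES, 6.85, 6.59 and 8.49 on DE and 7.13, 7.94 and 8.99 on AFE. In both, DE 3 reached the ES range and AFE 1 was the lowest of its group. Their changes from ES to DE were -1.07 ± 0.64 and -1.22 ± 0.56 and did not pass (adjusted p = 0.205 and 0.106), but did without DE 3 (adjusted p = 0.0475 and 0.00975).

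**Figure D4:**
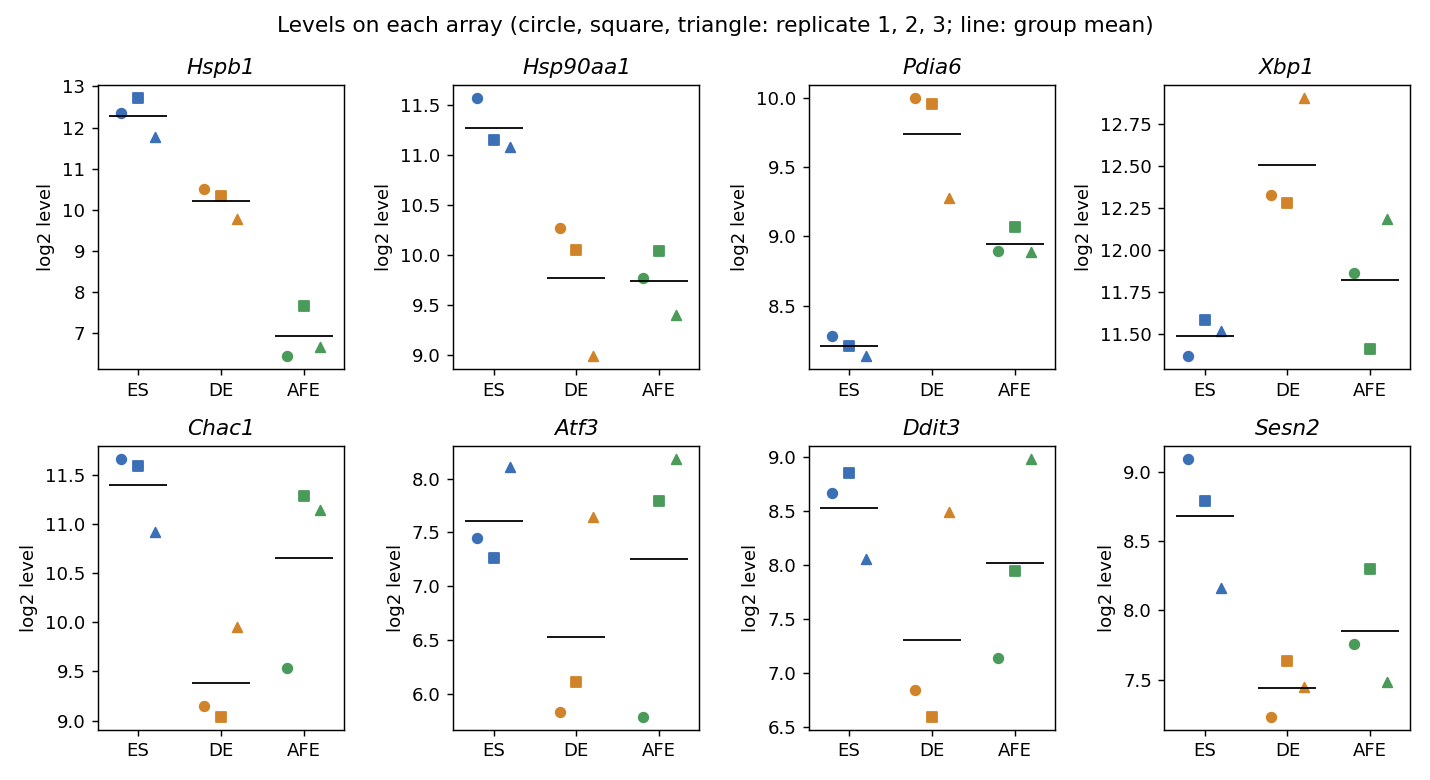
Log2 level (y axis) of 8 genes on each array, with one marker shape per replicate number and a line at the group mean. Hspb1 steps down over the 3 groups, Pdia6 and Xbp1 peak in DE, and for Chac1, Atf3 and Ddit3 AFE 1 lies low and DE 3 high within its group.

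Arrays of one group also differed in the Atf4-type genes as a class. On AFE 1 their median was 0.99 below the mean of AFE 2 and 3, while the median over all genes tested was 0.00. There 3 of 7 genes were at least 2-fold lower, beside 179 of all 10251 genes. On ES 3 their median was 0.70 below ES 1 and 2, while the median over all genes tested was -0.01. On DE 3, 2 of 7 were at least 2-fold above DE 1 and 2, Atf3 and Ddit3, beside 772 of all 10251 genes. Other marker lists also moved on these arrays. The ES cell list, at 5.68 and 5.85 on AFE 1 and 3, was at 7.77 on AFE 2; the list of immediate early genes, which respond to cell dissociation, was at 7.15, 6.91 and 8.13 on AFE 1, 2 and 3, at 8.28 to 8.38 on DE and at 9.85 to 10.66 on ES; the endothelial list was high on DE 3 and the fibroblast list on ES 3, as given above. Their part in the Atf4-type levels was not tested.

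Atf4 and its partners bind the element searched as TGATGNAA. It was in 4 of the 7 Atf4-type genes, Asns, Atf3, Chac1 and Trib3, and in Herpud1 of the other 20 genes with a window, against 3.97% of all windows. Of those 4 genes Asns, Chac1 and Trib3 fell from ES to DE, and Atf3 did not pass. Among the Atf4-type genes without the element, Sesn2 fell too, and Atf4 and Ddit3 did not pass. Of all genes tested 21.7% were lower in DE than in ES. The windows of Chac1 (chr2:119350992-119351291, plus strand) and Trib3 (chr2:152344011-152344310, minus strand) are shown because these genes fell most among those with the element, which is in capitals as its reverse complement and starts at position -193 in Chac1 and at 15 in Trib3.
Chac1: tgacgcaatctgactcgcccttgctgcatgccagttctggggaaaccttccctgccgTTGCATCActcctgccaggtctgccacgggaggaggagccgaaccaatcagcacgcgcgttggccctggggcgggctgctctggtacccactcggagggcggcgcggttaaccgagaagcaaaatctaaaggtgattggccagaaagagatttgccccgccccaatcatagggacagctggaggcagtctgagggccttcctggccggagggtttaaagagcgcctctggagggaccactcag
Trib3: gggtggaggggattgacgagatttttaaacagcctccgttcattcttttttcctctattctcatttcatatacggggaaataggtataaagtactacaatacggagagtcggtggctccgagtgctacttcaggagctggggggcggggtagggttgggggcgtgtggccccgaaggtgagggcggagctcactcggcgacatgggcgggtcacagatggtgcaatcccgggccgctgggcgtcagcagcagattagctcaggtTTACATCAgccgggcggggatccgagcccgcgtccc

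Between DE and AFE few of the 28 genes were called: 0 were higher and 3 lower, Hspb1, Pdia6 and Creld2. Of all genes tested 12.9% were higher and 10.1% lower (23% in either direction). At an unadjusted p under 0.05, 2 were higher, Dnajb1 and Chac1, and 4 lower, with Xbp1 beside the 3 named, while of all genes 21% were higher and 15.7% lower at that threshold. The ER median was -0.25, with 2 lower and 10 not passed, and the Atf4-type median 0.41 with 7 not passed, against 0.07 over all genes. Leaving out DE 3 gave 2 higher (Dnajb1 and Chac1) and 4 lower, with Hsp90b1 added (adjusted p = 0.0237). Leaving out DE 1 or DE 2 left 1 lower, and leaving out AFE 1 or AFE 3 gave 1 higher.

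Set against ES cells, AFE had 3 genes higher, Dnajc3, Manf and Pdia6, and 5 lower, Hspa1a, Hspa9, Hspb1, Hsp90aa1 and Sesn2. Of all genes tested 22.8% were higher and 19.3% lower (42.1% in either direction). The medians of the ER, cytosolic, mitochondrial and Atf4-type genes were 0.43, -0.80, -0.66 and -0.67, against 0.08 over all genes. This comparison shares its ES arrays with that of DE. Hspd1 did not pass by its brightest probe (adjusted p = 0.0554) but was lower in AFE by its second probe (-1.96 ± 0.31, adjusted p = 8.50e-04). Without DE 3, which enters only through the shared spread, 4 were higher and 8 lower: Hspa5 (adjusted p = 0.0154) joined those higher, and Hspd1, Hspe1 and Dnajb9 (0.0292, 0.0470 and 0.00704) those lower. In single omissions of other arrays Hspa5 also passed without ES 1 (0.0443), Hspd1 without AFE 2 (0.0488), Dnajb9 without AFE 3 (0.0445), Pdia3 without ES 3 (0.0460), Herpud1 without AFE 1 (0.0238) and Asns without AFE 2 (0.0397).

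Over the 3 groups together, 15 of the 28 genes differed by the moderated F-test of limma, against 55.7% of all genes tested. Those above both other groups in ES were Hsp90aa1, Hspa1a, Hspa9, Hspb1 and Sesn2, 5 of 28 beside 14.1% of all genes. Creld2 and Pdia6 were above both in DE (6.11% of all genes), and Dnajc3, Manf and Pdia6 were below both in ES (13.3% of all genes). Hspb1 was below both in AFE (3.16% of all genes). Genes below both in DE numbered 0 of 28 (4.96% of all genes), as did genes above both in AFE (6.92% of all genes).

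Other genes of the same pathways were counted in lists that were written with earlier results of these data known. Of all genes tested, 43.9% were called in DE against ES (22.2% higher, 21.7% lower). In AFE against DE 23% were called (12.9% higher, 10.1% lower), and in AFE against ES 42.1% (22.8% higher, 19.3% lower). Of 26 tested genes of ER folding and export, 18 were higher in DE than in ES (69.2%), 0 lower and 8 did not pass, with a median of 0.95. Pdia5, a disulfide isomerase, rose by 1.48 ± 0.29 (adjusted p = 0.00266), the ER reductase Dnajc10 by 1.47 ± 0.18 (adjusted p = 2.35e-04) and P4hb, the disulfide isomerase PDI, by 1.29 ± 0.19 (adjusted p = 5.35e-04). The dimmest detected probe of Dnajc10 gave -0.08 and did not pass. Against DE, AFE had 0 of the 26 higher and 6 lower (median -0.41), 23.1% beside 23% of all genes in either direction. There were 3 lower without DE 1 or DE 2, and 10 without AFE 3. Among the 6, Fkbp11, a prolyl isomerase of secretory cells, changed by -1.99 ± 0.31 (adjusted p = 0.00246). Sec61a1, the channel of the translocon, changed by -1.02 ± 0.17 (adjusted p = 0.00292). Against ES, AFE had 9 of the 26 higher and 1 lower (5 higher without ES 1), 38.5% beside 42.1% of all genes. Spcs2, a signal peptidase subunit, was at 1.34 ± 0.30 (adjusted p = 0.00615).

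In ER-associated degradation, 6 of 13 tested genes were higher in DE than in ES and 0 lower (median 0.77). That is 46.2%, beside 43.9% of all genes in either direction and 22.2% higher. Os9, a lectin that delivers misfolded glycoproteins, rose by 1.42 ± 0.24 (adjusted p = 0.00140) and Ube2j1, an ER ubiquitin-conjugating enzyme, by 1.34 ± 0.28 (adjusted p = 0.00410). Derl3, a channel component, was not well above background on ES or AFE and at least 1.77-fold higher in DE than in ES (adjusted p = 0.00266). From DE to AFE 3 of the 13 were lower and 0 higher, 23.1% beside 23% of all genes. There was 1 lower without DE 2 or AFE 2, and 5 without DE 3. Between ES and AFE 5 were higher and 0 lower, 38.5% beside 42.1% of all genes. There were 1 to 3 higher without any 1 array other than DE 3 and AFE 2. The largest change was that of the ubiquitin ligase Syvn1 (HRD1), at 1.04 ± 0.20 (adjusted p = 0.00313).

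Of 16 tested sensors and regulators of the unfolded protein response, 3 were higher and 2 lower in DE than in ES. That is 31.2%, beside 43.9% of all genes. There were 1 to 2 higher without any 1 ES array, DE 1 or DE 2, and 1 lower without any 1 ES array or DE 2. Creb3l1, an ER-bound transcription factor cleaved like Atf6, was at 7.26 and 7.87 on DE 1 and 2 but at 5.26 on DE 3, within the ES range of 4.64 to 5.29. Its rise of 1.73 ± 0.55 (adjusted p = 0.0299) was 2.50 without DE 3 and was lost without DE 1, DE 2 or any 1 ES array (adjusted p 0.0584 to 0.101). Against ES, AFE had 2 of the 16 higher and 7 lower, 56.2% beside 42.1% of all genes. There was 1 higher without ES 1, ES 2 or AFE 1. Nfe2l2 (NRF2), the oxidative stress factor, was at 7.71, 7.90 and 7.91 on ES, 7.17, 6.80 and 7.05 on DE and 5.67, 6.34 and 6.22 on AFE, a change of -1.76 ± 0.21 from ES to AFE (adjusted p = 2.00e-04). Ppp1r15a (GADD34), the phosphatase subunit that reverses eIF2 alpha phosphorylation, changed by -1.08 ± 0.21 (adjusted p = 0.00277).

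Of 25 Atf4 targets in amino acid supply, 10 were lower in DE than in ES and 1 higher (median -0.62). That is 44% called in either direction, beside 43.9% of all genes. In AFE against ES 11 were lower and 0 higher, 44% beside 42.1% of all genes. The 11 became 5 without ES 1 or ES 2, 6 without AFE 3, and 7 without AFE 1, where 2 were higher. The 10 became 6 without ES 1, ES 2 or DE 1. Slc7a3, a transporter of cationic amino acids, was at 12.71, 12.64 and 12.98 on ES, 9.09, 9.16 and 8.07 on DE and 10.08, 11.64 and 11.61 on AFE. It changed by -4.00 ± 0.43 from ES to DE (adjusted p = 1.04e-04), but did not pass by its dimmest detected probe (adjusted p = 0.0776). From DE to AFE it changed by 2.34 ± 0.43 (adjusted p = 0.00551), where that probe gave -0.31 and did not pass. As with Chac1, AFE 1 had the lowest of the 3 AFE levels. Cth, the cystathionine lyase of cysteine synthesis, changed by -3.95 ± 0.35 from ES to DE (adjusted p = 2.92e-05), and Cbs, which acts before it, was at least 3.00-fold lower in DE, where it was not well above background (adjusted p = 1.30e-04). From DE to AFE 4 of the 25 were higher and 0 lower, 16% beside 23% of all genes. There were 2 higher without DE 1, DE 2 or AFE 2, and 7 without AFE 3. Gpt2, an alanine transaminase, rose by 1.67 ± 0.31 (adjusted p = 0.00550).

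Of 14 other stress targets, 6 were lower and 1 higher in DE than in ES, 50% beside 43.9% of all genes. There were 0 higher without ES 1, ES 2, DE 1 or DE 2, and 2 without DE 3. The 1 higher gene, Vldlr, changed by 2.30 (adjusted p = 0.0220). Nupr1, a stress-induced chromatin protein, was at 11.44, 11.46 and 11.36 on ES, 5.92, 5.84 and 7.55 on DE and 5.95, 6.36 and 7.68 on AFE, and changed by -4.98 ± 0.52 from ES to DE (adjusted p = 7.91e-05). Gadd45a, a growth arrest gene, changed by -2.74 ± 0.31 (adjusted p = 1.29e-04). From DE to AFE the list had 7 higher and 2 lower, 64.3% beside 23% of all genes. There were 4 higher without DE 1, DE 2 or AFE 2, and 4 lower without DE 3. Ddit4 (REDD1), an inhibitor of mTORC1, was at 10.68, 10.51 and 10.69 on DE and 12.30, 12.36 and 12.09 on AFE, without overlap, and rose by 1.63 ± 0.23 (adjusted p = 0.00148). Fgf21, a secreted stress hormone, was not well above background on DE and at 5.73, 6.06 and 8.56 on AFE, at least 3.18-fold higher (adjusted p = 0.0431). The bound was 1.72-fold without AFE 3, and the change did not pass without any 1 ES or DE array (adjusted p 0.0526 to 0.104). Against ES, AFE had 5 of the 14 higher and 6 lower, 78.6% beside 42.1% of all genes. Among the lower ones, Nupr1 changed by -4.75, Hmox1 by -2.69 and Cebpb by -2.51 (adjusted p = 1.04e-04, 1.21e-04 and 2.65e-05).

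Of 25 tested co-chaperones and regulators of HSP70 and HSP90, 4 were higher and 8 lower in DE than in ES, 48% beside 43.9% of all genes. Bag2, a nucleotide exchange factor, was at 6.85, 6.86 and 6.45 on ES, 9.31, 9.49 and 9.13 on DE and 9.17, 9.38 and 8.93 on AFE, rising by 2.59 ± 0.20 to DE (adjusted p = 1.34e-05) against the direction of Hsp90aa1 and Hspa1a. The small heat shock protein Hspb8 was at 9.01, 8.99 and 8.79 on ES, 5.37, 5.80 and 7.17 on DE and 7.24, 7.95 and 10.06 on AFE, and changed by -2.81 ± 0.67 to DE (adjusted p = 0.00768). Bag3, its partner in selective autophagy, was at 11.37, 11.46 and 11.93 on ES, 13.44, 13.52 and 12.18 on DE and 10.47, 10.37 and 11.26 on AFE. Like Bag2 it rose from ES to DE, by 1.46 ± 0.38 (adjusted p = 0.0123). From DE to AFE it changed by -2.35 ± 0.38 (adjusted p = 0.00300). From DE to AFE 7 of the 25 were higher and 1 lower, 32% beside 23% of all genes. There were 4 higher without any 1 ES array or AFE 1, and 2 higher without DE 1, DE 2 or AFE 2.

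**Figure D5:**
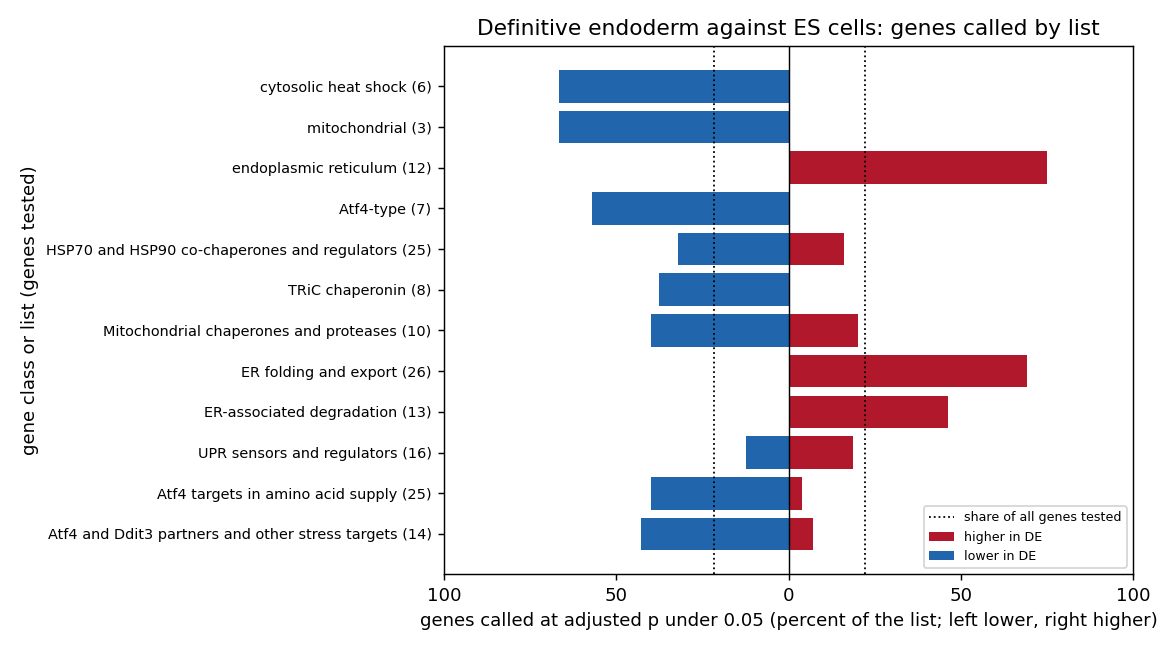
Percent of the tested genes of each class (the first 4 bars) and pathway list that were higher (right, red) or lower (left, blue) in DE than in ES; the number of tested genes is in brackets and dotted lines mark the shares of all genes tested, 22.2% higher and 21.7% lower. The 3 ER lists of chaperones, export and degradation have no blue bar.

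Of the 8 subunits of TRiC, the cytosolic chaperonin of actin and tubulin, 3 were lower in DE than in ES and 0 higher. That is 37.5%, beside 43.9% of all genes in either direction and 21.7% lower (5 subunits lower without ES 3). Cct6a, at 14.05, 13.95 and 14.19 on ES and 12.98, 13.18 and 12.90 on DE, changed by -1.04 ± 0.19 (adjusted p = 0.00220). Of 10 further mitochondrial chaperones and proteases, 4 were lower and 2 higher, 60% beside 43.9% of all genes. There was 1 lower without ES 1, ES 2 or DE 2, and 2 without DE 1. Trap1, the mitochondrial HSP90, was at 11.33, 11.45 and 11.47 on ES and 10.21, 10.25 and 10.77 on DE and changed by -1.01 ± 0.20 (adjusted p = 0.00286). It moved in the same direction as Hspa9. The 2 higher genes were Clpb and Hscb. Clpb, a disaggregase, was at 5.25, 4.82 and 5.86 on ES and 6.35, 6.83 and 6.31 on DE and rose by 1.19 ± 0.31 (adjusted p = 0.0117). Hscb, a J protein of iron-sulfur cluster assembly that was not well above background on ES, was at least 2.61-fold higher in DE (adjusted p = 0.00165), although its dimmest detected probe gave -0.16 and did not pass.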

How the data were processed

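Total RNA of 9 mouse samples, 3 a group, was read on Illumina bead arrays of 25697 probes. The deposited intensity values are one bead signal per probe and array on a linear scale, per the file headers, with a detection p-value per probe and array deposited beside them. The authors' processed values are on a log2 scale as far as their slope against the intensities shows. How they were made is not stated in the labels or headers. Of their 9 columns, 7 ranked the probes as their own sample's intensities did. The other 2, of ES 2 and ES 3, did not. The column of ES 3 ranked the probes as the intensities of ES 2 did, and that of ES 2 was closest to DE 2 (rank correlation 0.926). The processed values therefore served only as an alternative. Unmapped columns of per-sample values numbered 0.

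Intensities were background-corrected, quantile-normalized and log2-transformed with neqc of limma 3.58.1 in R 4.3.3 (offset 16). A probe was kept if 3 or more arrays detected it (p under 0.05). Platform annotation gave 1 symbol to 23978 probes, several to 0 and none to 1719, and 23962 were matched by Entrez ID. The brightest kept probe stood for a gene, which gave 10251 genes, 2772 of them with several kept probes. A linear model with 1 mean per group over all 9 arrays, moderated by eBayes, gave the 3 comparisons, and p-values were adjusted by Benjamini-Hochberg over all genes. The number of arrays limits the precision. In simulated data the fit recovered 39%, 42% and 45% of 2-fold changes for DE over ES, AFE over DE and AFE over ES. Of 4-fold changes it recovered 79%, 88% and 87%, in that order. The simulation changed a far smaller share of the genes than the 43.9%, 23% and 42.1% called in the data. Its adjustment of p-values was therefore stricter, and these percentages do not give the recovery in the data. An "at least" fold sets the measured group's mean against the lowest signal well above background where a probe was not detected on any array of the other group. Figures were drawn with matplotlib 3.10.9.

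All 32 genes were to be named, and from each pathway list up to 3 called genes a comparison with the largest absolute change. Not all of these pathway genes are printed above. Genes and lists were chosen with earlier results of these data known. Alternatives changed the background correction, scaling, filter, probe rule, arrays, moderation and threshold. Same-numbered arrays of different groups did not deviate together (9 correlations of -0.143 to 0.0748, 0 over 0.1), so the numbers were not treated as pairs.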

Additional observations from a re-analysis of the deposited data

How the results depend on the processing

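The numbers of the 28 genes called are given in the order DE above ES, DE below ES, AFE above DE, AFE below DE, AFE above ES, AFE below ES and differing among the groups, which were 9, 10, 0, 3, 3, 5 and 15. The authors' processed values gave 1, 4, 0, 1, 0, 3 and 5. Their columns of ES 2 and ES 3 did not match their samples' intensities, so these counts do not reflect the processing alone. Without those 2 columns only ES 1 is left in its group, and the counts of that fit are not given. A test against a fold of 1.5 gave 1, 2, 0, 1, 0 and 2 for the 6 directions. Without background correction 1 gene was higher in AFE than in DE, with only the 6 arrays compared 1 was lower in AFE than in DE, with median scaling 1 was higher in AFE than in ES, and with intensity trend and robust moderation 8 were lower in AFE than in ES. Leaving out 1 array at a time gave 4 to 9, 6 to 10, 0 to 2, 1 to 4, 2 to 4, 4 to 8 and 10 to 18. With the replicate number as a block the counts were 9, 11, 0, 3, 3, 7 and 14; no pairing is stated. Median scaling moved the median of all genes from AFE against DE from 0.07 to -0.12 and its calls from 1322 higher and 1036 lower to 652 and 1298. Hspa8 turned from 0.12 to -0.85 (mean of its probes) and -1.83 (dimmer probe) in DE against ES, and from 0.11 to -0.66 and -1.44 in AFE against ES. With the dimmest detected probe Hscb gave -0.16 in DE against ES and 0.17 in AFE against DE, Dnajc10 -0.078 in DE against ES and Slc7a3 -0.31 in AFE against DE. Under every alternative, those with the processed values included, 2 of the 19 calls in DE against ES held (Hspb1 and Pdia6). So did 1 of 3 in AFE against DE and 1 of 8 in AFE against ES (Hspb1 in both). The alternatives with single probes, other pathway genes and DE 3 or AFE 2 left out were chosen after seeing the data. The causes of these shifts were not tested.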
